A study of Mus musculus with 38 samples.

Results

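The genes that carry bone morphogenetic protein (BMP) signals inside the cell, those that limit them and those that they switch on were followed across 8 sorted populations of mouse bone and marrow. The members were the rows of the RPKM table with the symbols Smad1, Smad4, Smad5, Smad6, Smad7, Smurf1, Smurf2, Id1, Id2 and Id3. All 10 were present among the 13260 genes of the table. The rule used the gene symbol and no measured value. Across these populations the Id genes, known targets of the pathway, were abundant in the endothelial and mesenchymal cells of the bone lining. They were lower in myeloma cells. Activity of the pathway was not measured. Smad1, the inhibitory Smads and Smurf1 were close to 0 in myeloma cells, whereas Smad4 and Smad5 were not. No member passed the test between myeloma-bearing and healthy mice in any of the 3 niche cell types.

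BMP ligands bind paired serine/threonine kinase receptors at the cell surface, which phosphorylate the receptor-regulated Smads, among them Smad1 and Smad5. These bind the common partner Smad4, enter the nucleus and act on target genes, of which Id1, Id2 and Id3 are the best known. Id proteins lack a DNA-binding domain and hold basic helix-loop-helix (bHLH) transcription factors away from DNA. Smad6 and Smad7 are inhibitory Smads that the pathway itself induces, and Smurf1 and Smurf2 are ubiquitin ligases that mark Smads and receptors for degradation. In bone, BMP signalling is known for driving progenitors towards osteoblasts, and in vessels for its part in keeping endothelial cells quiescent.

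Smads bind DNA at GC-rich boxes and at the short Smad box, so the upstream regions of 2 members were read for these letters. Those of the other members, the Id genes among them, were not read. Promoter windows from RefSeq (GRCm38.p6) matched 7 of the 10 members, and the bases upstream of the annotated gene are shown for the feedback inhibitor Smad6 and for Smurf2, both on the minus strand. The stretches cover chr9:64022060-64022309 for Smad6 and chr11:106920762-106920965 for Smurf2. Each window was cut where it met an annotated exon. The Smurf2 stretch therefore stops short of its gene, which reaches 106920715, while the Smad6 stretch adjoins its gene. They are written 5′ to 3′, and capitals mark GGCGCC (its own reverse complement), GGAGCC or its reverse complement GGCTCC, and CAGAC or its reverse complement GTCTG.
Smad6: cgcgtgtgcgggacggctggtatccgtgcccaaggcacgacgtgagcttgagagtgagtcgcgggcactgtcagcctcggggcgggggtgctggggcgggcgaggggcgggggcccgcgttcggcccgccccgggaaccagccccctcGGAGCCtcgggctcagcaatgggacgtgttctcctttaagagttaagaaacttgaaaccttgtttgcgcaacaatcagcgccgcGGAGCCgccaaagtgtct
Smurf2: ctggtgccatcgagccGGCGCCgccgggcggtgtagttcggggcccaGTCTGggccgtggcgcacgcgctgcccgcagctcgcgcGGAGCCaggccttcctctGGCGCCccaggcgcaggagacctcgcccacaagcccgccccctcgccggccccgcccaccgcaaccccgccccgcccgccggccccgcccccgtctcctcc
The 250 bases of Smad6 held GGAGCC 2 times, and the 204 bases of Smurf2 held GGCGCC 2 times and each of the other motifs 1 time. Of 32851 promoter windows cut to the same lengths, 26.0% held GGAGCC in 250 bases, and 7.37% held GGCGCC, 21.1% GGAGCC and 36.4% CAGAC in 204 bases. The median GC content of the 204-base windows was 51.5%, against 80.9% in that of Smurf2. These matches describe the letters of the windows and were not tied to binding.

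All mice were of the C57Bl/KaLwRijHsd strain, were 8 to 10 weeks old at injection, received no other treatment and were killed on day 23 after it. Healthy mice had received phosphate-buffered saline into a vein, and myeloma-bearing mice 1000000 cells of 5TGM1-GFP, a GFP-tagged mouse myeloma line that grows in this strain. From the cells lining bone, endothelial cells (EC) were sorted by CD31, stromal progenitors (SP) as positive for Sca1 and negative for ALCAM, and osteoprogenitors (OP) as positive for ALCAM and negative for Sca1, with 5, 5 and 4 libraries of healthy mice and as many of myeloma-bearing mice. GFP-positive myeloma cells (MM) were sorted from the bone lining and from the central marrow, with 5 libraries each. Each of the 38 libraries held the RNA of 100 cells and carries a letter, which the labels do not tie to 1 mouse. The myeloma cells were thus all of 1 transplanted line, and a difference between them and the host cells is one between that line and normal cells, not between states of 1 cell type.

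Between 9735031 and 34883291 reads per library fell on the genes of the table. The sorted populations were checked against their markers. The values are RPKM, which are reads scaled to gene length and library size. The summed RPKM of 11 endothelial markers was 2404 to 5361 in EC and at most 33.3 in the other libraries, and that of the osteoprogenitor markers 8349 to 64512 in OP against at most 1328 elsewhere. The plasma cell markers summed to 4029 to 10815 in MM and to 80.4 to 452 in the niche cells. Of the 9 stromal progenitor markers, 6 had their highest mean in SP, among them Col3a1 (1829 RPKM, against 258 in OP and 20.9 in EC) and Prrx1 (83.2, against 28.3 and 7.20), while Ly6a, the gene of Sca1, Cxcl12 and Cd34 were highest in EC. Library L of healthy EC stood apart with 4501 genes above 1 RPKM, against 5834 to 9096 in the other libraries, and the neutrophil markers summed to 7353 in library L of healthy SP and 8132 in library E of myeloma SP, against at most 292 elsewhere. In such pooled samples, fewer cells that make a transcript and less of it per cell cannot be told apart.

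Positions are those of GENCODE on the mouse assembly GRCm38. Among the targets, Id1 was at chr2:152736251-152737410, Id2 at chr12:25093799-25097140 and Id3 at chr4:136143497-136145755. Among the activating Smads, Smad1 was at chr8:79338395-79399518, Smad5 at chr13:56703010-56742377 and Smad4 at chr18:73639009-73703780. Smad6 was at chr9:63953076-64022059 and Smad7 at chr18:75367529-75395935, while Smurf1 was at chr5:144876495-144965847 and Smurf2 at chr11:106820066-106920715. An annotated small RNA shared 100 exon bases with Smad5 and another 58 with Smurf2, both on the same strand and neither of them in the table. No member shared exon bases with a gene on the opposite strand.

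The first question was how the level of each member differed between cell types, with healthy and myeloma-bearing mice pooled (10 EC, 10 SP, 8 OP and 10 MM libraries). Levels are RPKM, which is per length and so also compares genes, and differences are log2 differences of RPKM plus 1, which understate the change of genes with low values. A member was called where the Benjamini-Hochberg adjusted p of limma over all 12683 genes tested was below 0.1 and the log2 difference was beyond 1 in either direction. The median difference of all genes was not at 0 in these comparisons. It was -0.12 for EC minus SP, -0.18 for EC minus OP, 0.24 for MM minus EC and 0.12 for MM minus SP, and lay within 0.1 of 0 for the other pairs.

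Among the receptor-regulated Smads, Smad1 averaged 33.4 ± 33.9 RPKM in EC (SD, n = 10), 11.6 ± 10.7 in SP, 14.4 ± 12.7 in OP (n = 8) and 0.0646 ± 0.167 in MM. The healthy EC libraries C, L, M, N and O read 21.3, 124, 25.1, 13.7 and 53.4 RPKM, and the myeloma EC libraries D, E, G, I and J 17.3, 13.8, 25.7, 24.5 and 15.3. In healthy SP the same 5 letters read 18.3, 23.7, 0, 28.6 and 0.103 RPKM, and in myeloma SP 1.51, 4.48, 22.0, 9.27 and 8.08. Every EC library thus held Smad1, while single SP libraries had none or almost none of it. In OP it read 3.65, 29.3, 6.75 and 3.50 RPKM in healthy libraries L, M, N and O and 36.9, 10.4, 6.34 and 18.7 in myeloma libraries D, G, I and J. In MM 42 reads of Smad1 were found over the 10 libraries, of which 35 came from library D of the central marrow. All MM libraries lay below every EC and every OP library.

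Smad5, the other receptor-regulated member, averaged 16.7 ± 12.6 RPKM in EC, 6.61 ± 6.01 in SP, 5.22 ± 3.71 in OP and 5.18 ± 2.45 in MM. It ran from 0.0159 to 41.9 RPKM in EC, with a median of 15.3, and from 1.88 to 8.74 in MM. In EC, library L of healthy mice, which stood apart, held 2 reads of Smad5 and the highest value of Smad1. Smad1 made up 62.0% of the summed RPKM of Smad1 and Smad5 in EC, 54.5% in SP, 66.7% in OP and 1.94% in MM, as means of each library's share, with a spread from 0 to 97.4% among the SP libraries. The sum in myeloma cells was therefore almost wholly Smad5.

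Smad4, the common partner, averaged 13.7 ± 8.93 RPKM in EC, 28.02 ± 30.3 in SP, 21.9 ± 17.2 in OP and 32.7 ± 13.3 in MM. In MM it read 49.99, 25.6, 29.9, 59.6 and 13.9 RPKM in libraries D, E, G, I and J of the lining and 32.1, 23.5, 36.2, 24.7 and 31.3 in those of the central marrow. The EC libraries lay between 5.13 and 32.9 RPKM, so the groups overlapped although the means differed. SP had the widest range, from 3.39 to 99.4 RPKM.

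Both inhibitory Smads were low in MM. Smad6, which blocks the BMP branch, averaged 9.84 ± 11.2 RPKM in EC, 10.9 ± 10.1 in SP and 7.78 ± 7.96 in OP, but 0.0935 ± 0.162 in MM, where 61 reads were found in all. Smad7, which blocks both the BMP and the TGF-β branch, averaged 6.94 ± 8.04 RPKM in EC, 9.95 ± 5.46 in SP, 9.91 ± 7.36 in OP and 0.442 ± 0.550 in MM. The niche libraries scattered widely. Smad6 ranged from 0 to 36.5 RPKM in EC, from 0.0789 to 30.5 in SP and from 1.37 to 24.7 in OP, and Smad7 ranged from 0 to 22.8, from 3.30 to 21.5 and from 0.267 to 22.6 RPKM in the same order. The highest MM library reached 0.431 RPKM of Smad6 and 1.75 of Smad7, so that Smad6 in OP and Smad7 in SP did not overlap with MM.

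The ubiquitin ligases differed in abundance. Smurf2 averaged 19.99 ± 30.5 RPKM in EC, 11.7 ± 7.33 in SP, 9.83 ± 5.76 in OP and 3.72 ± 1.86 in MM, with MM libraries between 1.34 and 7.42. Smurf1 was the lowest member, with 3.84 ± 5.75 RPKM in EC, 3.98 ± 7.395 in SP and 0.885 ± 1.28 in OP. It ranged from 0 to 19.6 RPKM in EC, from 0.0110 to 24.6 in SP and from 0 to 3.50 in OP. A single Smurf1 read was found in the 10 MM libraries together, in library D of the lining. Against a limit of 3 reads per library in the 5 central marrow libraries, all of which were at 0, the mean of Smurf1 was at least 149-fold higher in EC, at least 154-fold higher in SP and at least 34.3-fold higher in OP. Single libraries carried these limits, which were 81.2-fold without library D of myeloma EC, 65.6-fold without library I of myeloma SP and 19.8-fold without library M of healthy OP. They cover counting error only.

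**Figure D1:**
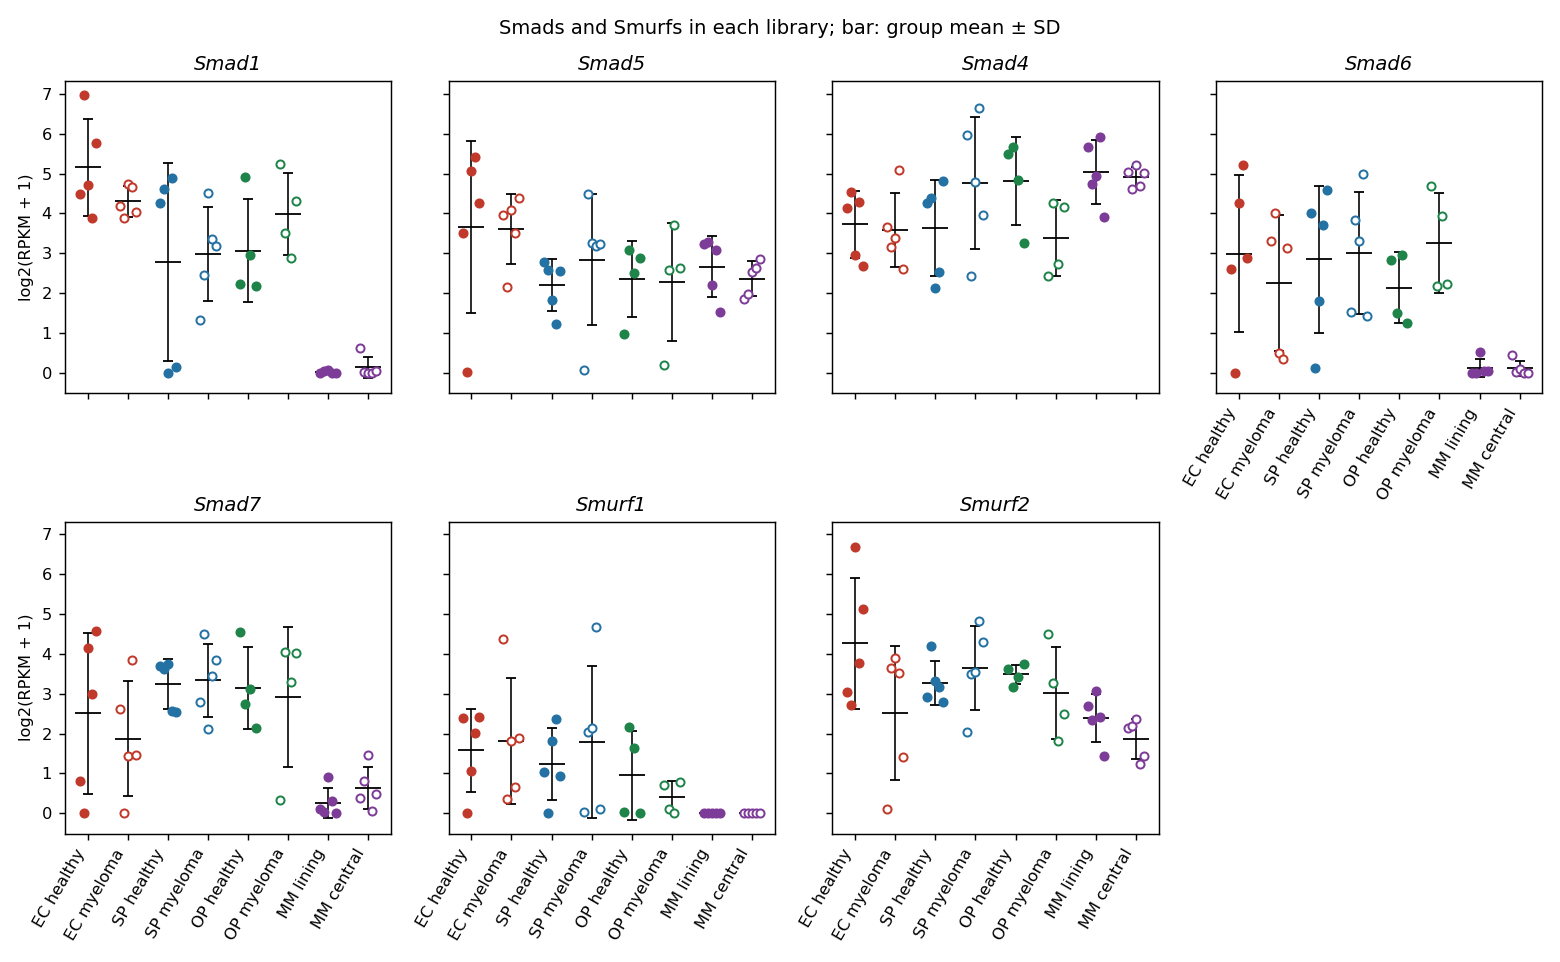
Level of the 7 Smads and Smurfs as log2(RPKM + 1) (vertical axis) in each of the 8 groups (horizontal axis). Each point is 1 library, filled for healthy mice or bone lining and open for myeloma-bearing mice or central marrow, and bars are the group mean ± SD. Smad1, Smad6, Smad7 and Smurf1 lie near 0 in MM, where Smad4 (13.9 to 59.6 RPKM) and Smad5 (1.88 to 8.74 RPKM) do not.

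In the niche cells the Id genes were the most abundant members, and each had its own order of levels. Id1 read 498, 1655, 2032, 2042 and 1668 RPKM in healthy EC libraries C, L, M, N and O and 1489, 1764, 609, 1510 and 784 in myeloma EC libraries D, E, G, I and J. In SP, with the letters in the same order, it read 147, 315, 302, 506 and 297 RPKM in healthy mice and 515, 649, 100, 213 and 316 in myeloma-bearing mice. In OP it read 193, 232, 375 and 533 RPKM in healthy and 349, 225, 326 and 543 in myeloma libraries. EC thus stood above SP and OP, with an overlap only through the lowest EC libraries, C and G. In MM it read 3.49, 2.02, 1.16, 3.06 and 0.657 RPKM in the lining and 0.154, 0.650, 0.689, 0.552 and 9.27 in the central marrow, and no MM library came near a niche library. The means were 1405 ± 570 RPKM in EC, 336 ± 173 in SP, 347 ± 134 in OP and 2.17 ± 2.74 in MM.

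Id2 had the opposite order among niche cells. It read 331, 566, 345, 701 and 492 RPKM in healthy EC and 669, 449, 246, 212 and 342 in myeloma EC, again with the letters C, L, M, N and O and then D, E, G, I and J. In SP it read 1106, 1160, 942, 1530 and 951 RPKM in healthy and 1408, 1229, 974, 515 and 1089 in myeloma-bearing mice, and in OP 977, 1092, 1392 and 1516 in healthy and 1248, 1034, 1032 and 1311 in myeloma-bearing mice. Every OP library was above every EC library, and of the SP libraries only library I of myeloma-bearing mice fell within the EC range. In MM it read 42.8, 79.4, 150, 66.8 and 155 RPKM in the lining and 113, 123, 149, 152 and 174 in the central marrow. The means were 435 ± 170 RPKM in EC, 1090 ± 280 in SP, 1200 ± 196 in OP and 121 ± 44.0 in MM, which made Id2 the most abundant member in myeloma cells.

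Id3 was the most abundant member in niche cells. In EC it read 2015, 3265, 5593, 5143 and 3307 RPKM in healthy and 3476, 4396, 2302, 2973 and 3056 in myeloma-bearing mice. In SP it read 1038, 1171, 1951, 1399 and 1105 RPKM in healthy and 2946, 1784, 1344, 1216 and 1622 in myeloma-bearing mice, and in OP 1684, 1766, 2473 and 2568 in healthy and 2200, 2444, 1578 and 2918 in myeloma-bearing mice. EC reached the highest values and SP the lowest, but neighbouring cell types overlapped. In MM it read 11.8, 5.65, 7.69, 2.51 and 55.4 RPKM in the lining and 0.490, 31.4, 15.9, 20.3 and 8.17 in the central marrow, all below the niche libraries and with library D of the central marrow the lowest and library J of the lining the highest. The means were 3553 ± 1158 RPKM in EC, 1558 ± 573 in SP, 2204 ± 482 in OP and 15.9 ± 16.6 in MM.

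**Figure D2:**
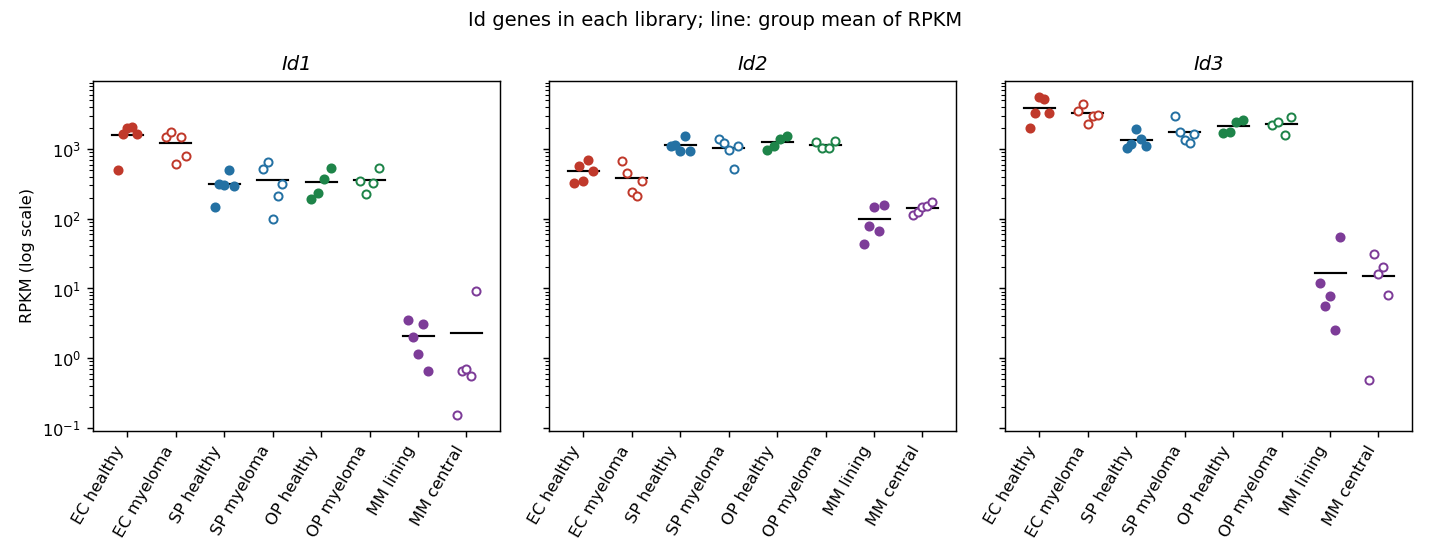
RPKM of Id1, Id2 and Id3 (vertical axis, log scale) in each of the 8 groups (horizontal axis). Each point is 1 library, filled for healthy mice or bone lining and open for myeloma-bearing mice or central marrow, and lines are group means. Id1 is highest in EC (mean 1405 RPKM), Id2 in OP (1200) and SP (1090), and all 3 genes are lowest in MM.

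The makeup of the Id pool differed accordingly. Of the summed RPKM of the 3 genes, Id1 took 25.3%, Id2 8.33% and Id3 66.4% in EC, as means of each library's shares. The shares were 10.9%, 37.2% and 51.9% in SP and 9.05%, 32.3% and 58.6% in OP, which were closer to each other than to those of EC. In MM Id2 took 87.3%, Id3 10.8% and Id1 1.97%. The share of Id2 ran from 4.33% to 11.9% among EC libraries, from 26.5% to 48.3% in SP, from 27.5% to 35.3% in OP and from 73.4% to 99.4% in MM, so EC and MM overlapped with no other cell type. The summed level of the 3 genes was 1944 to 7970 RPKM in the niche libraries and 58.1 to 211 in MM.

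**Figure D3:**
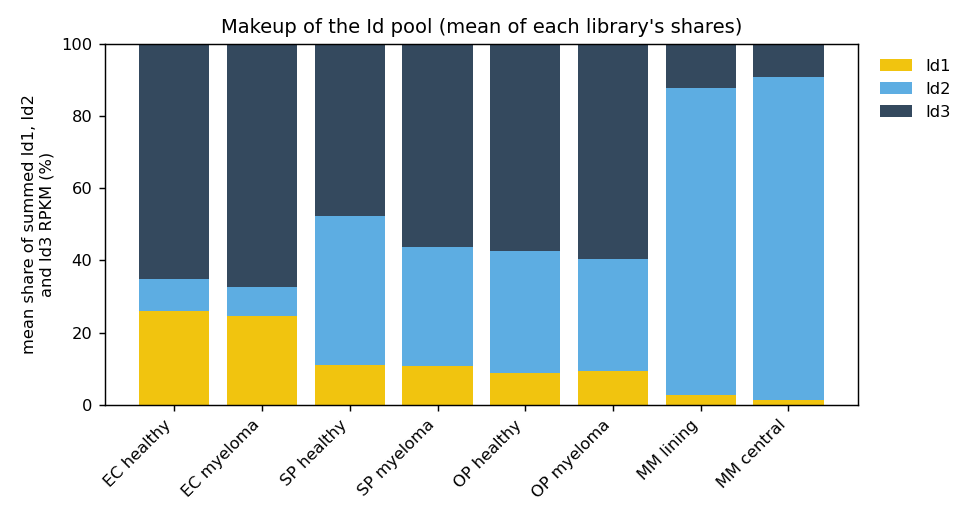
Mean share (vertical axis, in %) of Id1, Id2 and Id3 in the summed RPKM of the 3 genes for each of the 8 groups (horizontal axis), averaged over the libraries of the group. Id3 takes the largest share in the niche groups (47.7% to 67.5%) and Id2 in both MM groups (85.0% and 89.5%).

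In the fit, 4 members differed between EC and SP. Those higher in EC were Id1, by 2.11 (SE 0.38, limma adjusted p = 3.3e-05), Smad1, by 1.85 (SE 0.56, adjusted p = 0.0126), and Id3, by 1.19 (SE 0.38, adjusted p = 0.0206). Id2 was lower in EC, at -1.37 (SE 0.23, adjusted p = 1.07e-05). Of all genes, 9.97% were called higher and 15.5% lower in EC, against 3 and 1 of the 10 members. Smad5 (1.12, adjusted p = 0.169) and Smad7 (-1.09, adjusted p = 0.165) were beyond the fold limit but not called. Without library letter L the difference of Smad5 was 1.62 (adjusted p = 0.0176) and without letter E 1.51 (adjusted p = 0.0762), and that of Smad7 was -1.44 (adjusted p = 0.0649) without letter O and -2.51 (adjusted p = 0.0756) with voom on recovered reads. In libraries of healthy mice alone the difference of Smad1 was 2.38 with an adjusted p of 0.174, in those of myeloma-bearing mice alone that of Id3 was 0.90 with an adjusted p of 0.387, and with array weights it was 1.12 with an adjusted p of 0.414.

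Between EC and OP, Id1 was higher in EC by 1.96 (SE 0.40, limma adjusted p = 0.000209) and Id2 was lower, at -1.55 (SE 0.24, adjusted p = 3.62e-06). With 10.4% of all genes called higher and 17.5% lower in EC, 1 of 10 members in each direction was near the background share. Id3 did not reach the fold limit. Smad5 (1.32, adjusted p = 0.111), Smad1 (1.21, adjusted p = 0.145) and Smurf1 (1.02, adjusted p = 0.158) passed it without being called. Without letter M, Smad1 (1.57, adjusted p = 0.0420) and Smurf1 (1.28, adjusted p = 0.0934) were called, and Smad5 was called without letter E (1.503, adjusted p = 0.0788), I (1.57, adjusted p = 0.0976) or L (1.54, adjusted p = 0.0359), with array weights (1.47, adjusted p = 0.0802) and without a mean-variance trend (1.32, adjusted p = 0.0987).

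Between OP and SP none of the 10 members was called, where 4.90% of all genes were higher and 3.58% lower in OP and 2213 genes had an unadjusted p under 0.05. The member differences ran from -0.83 to 0.65, and the lowest limma adjusted p was 0.448. By order of level, Id1 was highest in EC and Id2 lowest in EC, with SP and OP called apart in neither, and Id3 was higher in EC than in SP with OP between them and called apart from neither. For the Smads and Smurfs no order between SP and OP held beyond the spread.

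Myeloma cells differed from each niche cell type in most members. Smad1, Smad6, Smad7 and Smurf1 entered this fit through niche libraries, since they were too low in MM to pass the filter on low values there, so that the filter left little room for calling such a gene other than lower in MM. Against EC, 8 members were lower in MM and 1 was higher, where 16.9% of all genes were lower and 26.3% higher. Id1 was lower by a log2 difference of -8.98 (SE 0.38, limma adjusted p = 1.22e-21), a 647-fold ratio of the means (1017-fold without library J of central marrow MM), and Id3 by -8.28 (SE 0.38, adjusted p = 2.93e-20), a 223-fold ratio. Smad1 followed at -4.65 (SE 0.56, adjusted p = 9.63e-09), Smad6 at -2.51 (SE 0.61, adjusted p = 0.00108) and Id2 at -1.85 (SE 0.23, adjusted p = 1.75e-08). Smad7 (-1.74, adjusted p = 0.0102), Smurf1 (-1.70, adjusted p = 0.0045) and Smurf2 (-1.26, adjusted p = 0.0424) were also lower. Smad4 was higher in MM, by 1.32 (SE 0.48, adjusted p = 0.0259). Smad5 was at -1.12 with an adjusted p of 0.114. Of the 10 members, 4 did not overlap between MM and EC, namely Smad1 and the Id genes, all lower in MM, where 4.95% of all genes tested lay lower without overlap.

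The pattern against the mesenchymal cells was similar. Smad1, Smad6, Smad7 and Smurf1 were again admitted through niche libraries, which left little room for a call other than lower in MM. Against SP, 8 members were lower and none was higher in MM, where 19.3% of all genes were lower and 22.5% higher. The differences were -7.09 for Id3, -6.87 for Id1, -3.23 for Id2, -2.84 for Smad7, -2.81 for Smad6, -2.80 for Smad1, -1.51 for Smurf1 and -1.32 for Smurf2. Against OP, 7 members were lower and none was higher, where 20.1% of all genes were lower and 19.9% higher. Here Id3 was at -7.63, Id1 at -7.02, Smad1 at -3.45, Id2 at -3.40, Smad7 and Smad6 each at -2.58 and Smurf2 at -1.11 (limma adjusted p = 0.0998). With voom on recovered reads, Id3 missed the threshold against SP (-7.36, adjusted p = 0.118) and OP (-7.98, adjusted p = 0.101). Groups did not overlap for 5 members against SP (Smad7, Smurf1 and the Id genes) and for 5 against OP (Smad1, Smad6 and the Id genes), all lower in MM. For Smurf1 the gap came from library scaling alone, since its lowest SP libraries and its highest MM library held 1 read each, and it is not read as a separation. The share of all genes that lay lower in MM without overlap was 6.92% against SP and 8.78% against OP.

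Smurf2 was the least stable of the calls. Its difference from EC was -0.38 (adjusted p = 0.666) in libraries of myeloma-bearing mice alone, -1.22 (adjusted p = 0.132) with a pseudocount of 0.1, -1.097 (adjusted p = 0.241) with voom on recovered reads, -1.15 (adjusted p = 0.115) without letter E, -1.06 (adjusted p = 0.137) without letter I and -0.96 (adjusted p = 0.121) without letter M. From SP it was -1.10 (adjusted p = 0.125) without letter I and -1.07 (adjusted p = 0.146) without letter J, and its call against OP was lost in 12 of 20 alternatives, among them those without D, E, G, I, J, L, N or O. Smad5 was called lower in MM than in EC with array weights (-1.41, adjusted p = 0.0165) or median-ratio scaling (-1.12, adjusted p = 0.0906), and without letter L (-1.57, adjusted p = 0.00975) or E (-1.33, adjusted p = 0.0916). Without letter L, which stood apart in EC and SP, 5 members were called between EC and SP, 3 between EC and OP, and 10, 8 and 6 between MM and EC, SP and OP. Without letter E these counts were 5, 3, 9, 8 and 6, and no member was called between states under either. The shares of all genes called without L or E are not given here, so these counts are not set against a background. The fitted values of genes with few reads in MM depend on the 1 RPKM added before taking logs.

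Immediate-early genes, which respond within minutes to stress and handling, were in sum also lower in MM. The 14 genes summed to 3380 to 8652 RPKM in niche libraries, to 184 to 430 in MM of the lining and to 123 to 187 in MM of the central marrow. In MM, 13 of the 14 were called lower against EC, 13 against SP and 14 against OP. The shares of all genes were 16.9%, 19.3% and 20.1%. Only 8 of the 14 passed the filter on low values within MM. The others were tested through niche libraries, which left little room for a call other than lower in MM. Their part in the lower Id levels was not tested.

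**Figure D4:**
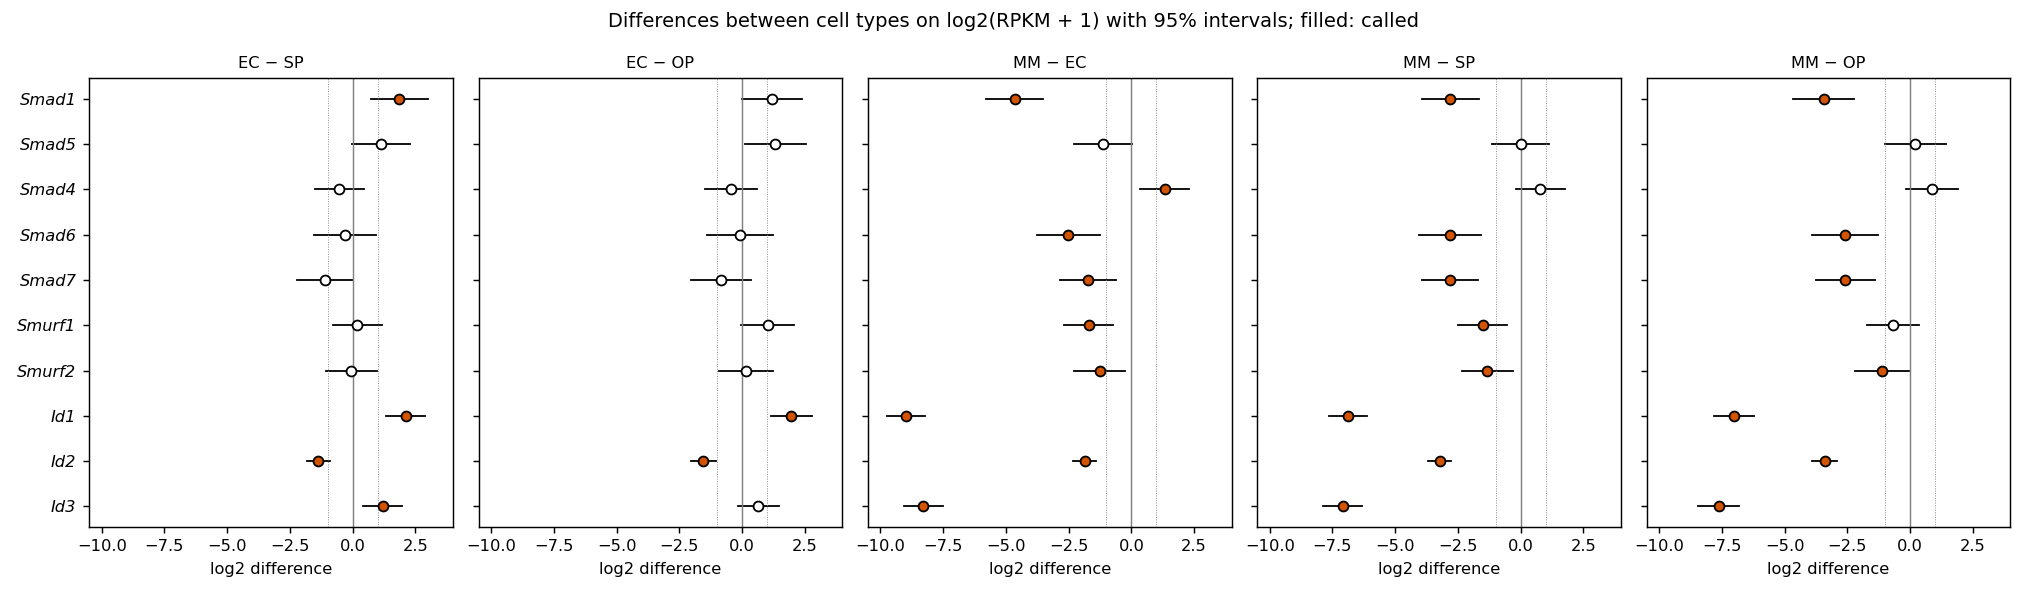
Differences between cell types in log2(RPKM + 1) (horizontal axis) for the 10 members (vertical axis), with 95% intervals. Filled points were called, and dotted lines mark the fold limit of 1 in each direction. Id1 and Id2 lie on opposite sides of 0 in both EC panels, and Id1 and Id3 lie furthest below 0 in the MM panels.

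The second question was whether myeloma in the mouse went with other levels of these genes in the niche. In EC, 0 of 10 members were called, as were 0% of the 7880 genes tested, of which 414 had an unadjusted p under 0.05. Estimates for myeloma-bearing minus healthy mice ran from -1.76 to 0.24, with 9 of 10 below 0, and the lowest limma adjusted p was 0.941. Smurf2 had the largest difference. It read 7.19, 5.57, 103, 12.7 and 34.2 RPKM in healthy libraries C, L, M, N and O and 0.0703, 11.4, 13.96, 10.4 and 1.67 in myeloma libraries D, E, G, I and J. Libraries M and O stood above and libraries D and J below a common middle range in which the groups overlapped. The difference was -1.76 (SE 1.17, 95% interval -4.20 to 0.68, adjusted p = 0.941).

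In SP, 0 of 10 members and 0% of 8747 genes were called, with 437 genes at an unadjusted p under 0.05. Estimates ran from -0.18 to 1.14, with 9 of 10 above 0, and the lowest limma adjusted p was 0.976. Smad4 was the member beyond the fold limit. It read 18.2, 20.1, 3.39, 4.83 and 26.9 RPKM in healthy libraries C, L, M, N and O and 61.7, 4.41, 26.8, 99.4 and 14.6 in myeloma libraries D, E, G, I and J. Libraries D and I were above every healthy library and library E near the lowest of them. The difference was 1.14 (SE 0.87, 95% interval -0.69 to 2.96, adjusted p = 0.976).

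In OP, Smurf1 was too low to be tested and 0 of the other 9 members were called, where 0.0115% of 8664 genes (1 gene) were and 422 had an unadjusted p under 0.05. Estimates ran from -1.42 to 1.12. Smad4 read 43.8, 49.6, 27.8 and 8.58 RPKM in healthy libraries L, M, N and O and 4.37, 18.3, 5.59 and 16.8 in myeloma libraries D, G, I and J, which overlapped through library O alone among the healthy ones. Its difference was -1.42 (SE 0.78, 95% interval -3.08 to 0.24, limma adjusted p = 0.981). Smad6 read 6.17, 1.84, 6.73 and 1.37 RPKM in healthy and 24.7, 3.51, 14.2 and 3.68 in myeloma libraries, of which D and I were above every healthy library. Its difference was 1.12 (SE 0.96, 95% interval -0.93 to 3.17, adjusted p = 0.985).

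The intervals of the Id genes were the narrowest of the members. In EC the 95% interval of the log2 difference was -1.19 to 0.55 for Id1, -1.33 to 0.51 for Id2 and -0.79 to 0.40 for Id3. In SP it was -0.99 to 1.03 for Id1, -0.81 to 0.45 for Id2 and -0.22 to 0.99 for Id3, and in OP -0.70 to 1.02, -0.68 to 0.50 and -0.51 to 0.71. None of these 9 intervals reached below -1.33 or above 1.03. The pooled SD within niche groups was 0.77 for Id1, 0.46 for Id2 and 0.43 for Id3 on the log2 scale, against 1.16 to 1.62 for the Smads and Smurfs. Over all genes the median of that SD was 1.54 at a mean log2 level of 1 to 3 (5178 genes), 1.59 at 3 to 5 (2478 genes) and 0.63 at 8 to 12 (257 genes), the range of the Id genes.

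A fit of all 38 libraries with voom on whole reads recovered from the RPKM called 251 genes in EC, 82 in SP and 28 in OP, and no member among them. Smurf2 was at -2.92 (adjusted p = 0.153) in EC. Id1 and Id3, chosen here after their values were seen, were below the fold limit in EC. Id3 was at -0.38 (SE 0.11, adjusted p = 0.0852) and Id1 at -0.66 (SE 0.24, adjusted p = 0.192). Smad5 (0.85) and Smurf1 (1.22) were above 0 there, uncalled. In that fit the weight of Id3 was 3159 in library J of myeloma EC and 54.5 to 813 in the other EC libraries.

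The change with myeloma was also compared between cell types, over the 28 niche libraries. None of the 10 members was called for the change in EC minus that in SP, in EC minus that in OP or in SP minus that in OP, where 0%, 0% and 0.00854% (1 gene) of 11713 genes were, and 684, 610 and 403 genes had an unadjusted p under 0.05. All 10 estimates for EC minus SP were below 0. The furthest was that of Smurf2, at -2.13 (95% interval -4.49 to 0.24, limma adjusted p = 0.880), followed by Smad4 (-1.28) and Smad1 (-1.04). For EC minus OP the estimates beyond 1 were those of Smad6 (-1.86), Smad1 (-1.77), Smurf2 (-1.29) and Smad4 (1.28), with no adjusted p below 0.991, and for SP minus OP that of Smurf1 was 1.11. Smad4, which was higher with myeloma in SP and lower in OP by its point estimates, differed between these changes by 2.56 (SE 1.18, 95% interval 0.15 to 4.96, adjusted p = 1.00). Each pair of these comparisons shares the libraries of 1 cell type.

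The third question was whether myeloma cells on bone differed from those in the central marrow. Smad1, Smad6, Smad7 and Smurf1 were too low in MM to be tested, and 0 of the other 6 members were called, where 0.203% of 8857 genes (18 genes) were and 530 had an unadjusted p under 0.05. Estimates for lining minus central ran from -0.67 to 0.52, with the lowest limma adjusted p at 0.832, that of Id2. As listed above, Id2 was below every central library in 3 of 5 lining libraries and within their range in the other two. Of the immediate-early genes, 8 could be tested and 2 (Fos and Fosb) were higher in the lining.

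Exact two-sided permutation tests of the members' group means gave 40 values. The p ranged from 0.151 to 0.976 in EC, from 0.206 to 0.952 in SP, from 0.114 to 0.914 in OP and from 0.127 to 1 between MM sites, unadjusted for their number. The smallest possible values were 0.00794 for 5 against 5 libraries and 0.0286 for 4 against 4.

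**Figure D5:**
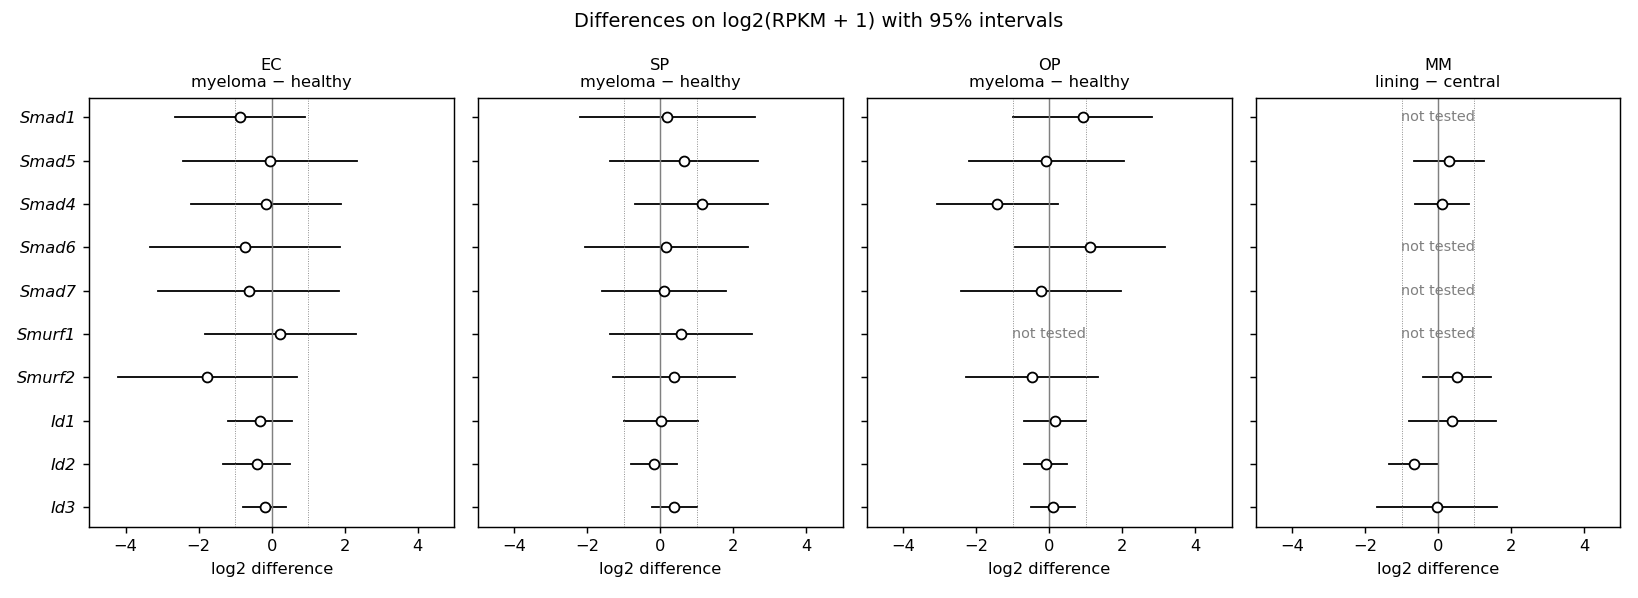
Differences in log2(RPKM + 1) (horizontal axis) for the 10 members (vertical axis) between myeloma-bearing and healthy mice in EC, SP and OP and between bone lining and central marrow in MM, with 95% intervals. Dotted lines mark the fold limit of 1 in each direction, and all points are open because none was called. The intervals of the Id genes in niche cells are narrower than those of the Smads and Smurfs, the widest of which runs from -3.35 to 1.87 (Smad6 in EC).

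Genes around the members were read from 4 lists. In the comparisons of myeloma-bearing with healthy mice, of MM sites and of changes between cell types, no gene of any list was called in the main test, against the background shares given above. With all 38 libraries in a single fit, Acvr2b (-3.34, adjusted p = 0.00106) and Usp9x (-3.06, adjusted p = 0.0548) were called lower with myeloma in EC, Bmpr1b (1.99, adjusted p = 0.0139) higher in SP and Tnfsf11 (2.98, adjusted p = 0.0852) higher in OP. With voom on all 38 libraries, Acvr2b (-7.01, adjusted p = 0.00856) and Usp9x (-6.68, adjusted p = 0.0446) were called in EC, and Bmpr1b (5.91, adjusted p = 0.0554) and Tnfsf11 (5.63, adjusted p = 0.0945) in SP. The change of Acvr2b in EC was called apart from that in OP in the single fit (-3.62, adjusted p = 0.0759) and without letter M (-4.48, adjusted p = 0.0470), and from that in SP without letter M (-4.20, adjusted p = 0.0854). Between cell types, counts are to be read beside the shares of all genes called higher and lower, which were 9.97% and 15.5% for EC against SP, 10.4% and 17.5% for EC against OP, 4.90% and 3.58% for OP against SP, and 26.3% and 16.9%, 22.5% and 19.3%, and 19.9% and 20.1% for MM against EC, SP and OP.

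The first list held 34 ligands, receptors, antagonists and bone genes that the study put together after a first analysis of these samples, so that their direction is not independent evidence. Of these, 31 were tested between cell types, 13 between states in EC, 24 in SP and 20 in OP, and 7 between MM sites. In EC, 3 were higher and 14 lower than in SP (9.97% and 15.5% of all genes), and 3 were higher and 11 lower than in OP (10.4% and 17.5%). Tnfrsf11b, the decoy receptor for the osteoclast cytokine RANKL, averaged 0.127 RPKM in EC, 445 in SP and 185 in OP (log2 differences of -8.61 and -7.21). Eng, an endothelial co-receptor for BMP9, averaged 129 RPKM in EC, 5.62 in SP and 3.40 in OP (5.00 and 5.55). Twsg1, which modulates BMP binding, was at -4.22 against SP, and Bmp1, a procollagen proteinase that is no BMP ligand, at -3.99 against OP. In OP, 4 were higher and 1 lower than in SP, the largest differences being those of Bmp7 (3.11), Runx2 (2.27) and Bmp1 (1.81). MM had 7, 18 and 18 genes lower than EC, SP and OP and none higher, but only 7 of the 31 passed the filter on low values within MM. The others were tested through niche libraries, which left little room for a call other than lower in MM, so that nothing is read from the direction. The ligand Bmp4 averaged 0.102 RPKM in MM and 56.6 in EC, 108 in SP and 45.7 in OP (differences of -4.20, -6.22 and -5.18). Bmp2 was at -5.86 against SP and -5.40 against OP, Tnfrsf11b at -8.67 and -7.28, and Eng (-6.77) and the receptor Acvrl1 (-3.58) were lower than in EC. In the comparisons without a call in the main test, the largest differences between myeloma-bearing and healthy mice were those of Acvr2b (-3.34), Bmpr2 (1.72) and Acvrl1 (1.54) in EC, Bmp5 (2.01), Bmpr1b (1.99) and Smad3 (1.76) in SP and Tnfsf11 (2.98), Bmp6 (-2.07) and Dand5 (-1.96) in OP, and between MM sites those of Bmp1 (1.204), Acvr2a (-1.16) and Dand5 (-0.59).

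The second list held 29 co-factors, ligases and phosphatases that act on Smads, of which 28 were tested between cell types, 25 between states in each niche cell type and 20 between MM sites. In EC, 1 was higher and 8 lower than in SP, led by the repressor Tgif1 (-2.53), the TGF-β-induced inhibitor Pmepa1 (-2.48) and the co-repressor Ski (-1.72). Against OP, 4 were higher and 6 lower in EC, led by the phosphatase gene Ctdspl (-2.78), Tgif1 (-2.53) and Pmepa1 (-1.93). OP had 1 higher than SP, Nedd4l. MM had 4 higher and 11 lower than EC, 12 lower than SP, and 1 higher and 8 lower than OP. Of the 28 genes, 20 passed the filter within MM. The others were tested through niche libraries, which left little room for a call other than lower in MM. Bambi, a pseudoreceptor that blunts BMP and TGF-β signals, averaged 2.39 RPKM in MM and 31.8 in EC, 29.5 in SP and 60.3 in OP (differences of -3.35, -3.46 and -4.48). The deubiquitinase Usp15 was higher in MM than in EC, by 2.75, and Zfp423, a BMP co-factor, lower, at -3.07. Pmepa1 was lower at -5.10 against SP and -4.56 against OP, Tob1 at -3.46 against SP and Ctdspl at -4.51 against OP. Uncalled differences with myeloma were largest for Usp9x (-3.06), Zfyve16 (-1.68) and Ep300 (-1.63) in EC, Trim33 (1.77), Rnf111 (1.59) and Stub1 (-0.89) in SP and Usp9x (-1.58), Ppm1a (1.12) and Stub1 (-1.07) in OP, and between MM sites for Skil (1.02), Ep300 (-0.96) and Tob1 (0.93). OP and SP differed most, uncalled, in Rnf111 (1.4), Ctdspl (1.29) and Ctdsp1 (-1.18), where the mean RPKM of Rnf111 was 10.7 in OP and 12.8 ± 33.6 (SD) in SP, the other way from its log2 difference.

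The third list held 20 further genes known as BMP targets, of which 17 were tested between cell types, 7, 9 and 10 between states in EC, SP and OP, and 3 between MM sites. EC had 4 higher and 3 lower than SP and 4 higher and 6 lower than OP. The endothelial and blood transcription factor Hhex averaged 82.3 RPKM in EC, 0.983 in SP and 0.0350 in OP (differences of 5.07 and 5.37), Gata2 was at 3.69 against SP, and the osteoblast factor Dlx5 (-3.16 against SP, -4.81 against OP) was lower in EC. In OP, 4 were higher than in SP, among them Sp7 (3.11) and Runx2 (2.27), both factors of osteoblast differentiation. MM had 5, 9 and 10 lower than EC, SP and OP and none higher, a direction that the filter again favoured, since only 3 of the 17 passed it within MM. Id4, the remaining gene of the Id family, averaged 0.0229 RPKM in MM, 38.5 in SP and 27.7 in OP (differences of -4.50 and -4.60). Hes1, a Notch and BMP target, averaged 18.4 RPKM in MM and 426 in EC (-4.57). Against EC, Hhex (-4.98) and Gata2 (-3.50) followed, against SP Dlx5 (-3.55) and against OP Dlx5 (-5.20). Uncalled differences with myeloma were largest for Gata2 (0.61), Bambi (0.53) and Atoh8 (0.52) in EC, Dlx5 (-1.56), Dlx3 (-1.25) and Hes1 (0.73) in SP and Dlx5 (-2.26) and Sp7 (1.58) in OP, and between MM sites for Bambi (0.46), Hey1 (-0.41) and Hes1 (0.22).

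The fourth list held 9 bHLH factors, the partners that Id proteins bind or compete for, and all were tested between cell types, against 6 in EC, 7 in SP, 6 in OP and 4 between MM sites. EC had 2 higher and 4 lower than SP and 3 higher and 3 lower than OP. The mesenchymal factor Twist1 averaged 6.02 RPKM in EC, 34.3 in SP and 48.1 in OP (differences of -3.65 and -4.50), and Tal1, a blood and endothelial factor, was higher in EC by 2.55 against SP and by 2.55 against OP. Hand2 (-1.96 against SP) and Bhlhe40 (-2.02 against OP) were lower in EC. No bHLH gene was called between OP and SP, where Twist2 (-1.14), Twist1 (0.85) and Hand2 (-0.57) differed most. MM had 2 higher and 3 lower than EC (26.3% and 16.9% of all genes). Against SP, 1 was higher and 5 lower (22.5% and 19.3%), and against OP 2 and 3 (19.9% and 20.1%). Only 4 of the 9 passed the filter within MM. The others, Bhlhe40 among them, were tested through niche libraries, which left little room for a call other than lower in MM. Bhlhe40 averaged 0.197 RPKM in MM against 47.3 in EC, 145 in SP and 147 in OP (-4.96, -6.89 and -6.98), while Lyl1, a blood factor, averaged 24.1 RPKM in MM and was higher by 3.16, 4.17 and 4.38. Tcf4, an E protein gene (-2.46 against EC), and Twist1 (-4.71 against SP, -5.56 against OP) were lower in MM. Uncalled differences with myeloma were largest for Lyl1 (1.22), Tcf12 (0.62) and Tcf4 (-0.50) in EC, Tcf3 (2.05), Tcf12 (1.48) and Hand2 (-0.97) in SP and Tcf3 (0.96), Hand2 (-0.36) and Twist1 (0.29) in OP, and between MM sites for Tcf12 (0.51), Lyl1 (-0.46) and Tcf3 (-0.33).

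For each member the 3 genes whose log2(RPKM + 1) followed it most closely were listed over the 38 libraries, among 12683 genes. The points share cell types and depth, so the coefficients mostly describe differences between cell types. Id1 was closest to Tmsb10 (r = 0.970), Klf2 (0.965) and Tm4sf1 (0.964), Id2 to Clu (0.932), Mxra8 (0.930) and Col5a2 (0.925), and Id3 to Ppic (0.971), Tmsb10 (0.967) and App (0.960). Smad1 was closest to Vegfc (0.868), Ctnnb1 (0.867) and Cald1 (0.860). Smad7 was closest to Rasl11a (0.838), Trip6 (0.787) and Pxdc1 (0.785), and Smad6 to Ggh (0.766), Raph1 (0.764) and Tmtc1 (0.753). Smurf1 was closest to Bok (0.745), Hic1 (0.700) and Chst15 (0.696). The weakest best matches were those of Smad5 with Rsrc2 (0.698), Fam43a (0.698) and St6galnac2 (0.677), Smad4 with Sdad1 (0.658), Zswim1 (0.635) and Diablo (0.627), and Smurf2 with Pcdhb9 (0.659), Cpd (0.632) and Syne2 (0.626).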

How the data were processed

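RNA was amplified by SmartSeq2 and sequenced as 50 bp single-end reads. Per the labels and methods, the authors aligned reads with STAR (2.4.0) to GRCm38 (mm10), counted them on UCSC genes with featureCounts of Subread (1.4.5-p1) at default parameters, dropped genes that did not exceed 1 CPM in 4 or more samples, and deposited RPKM values made with edgeR. The strand setting of the counting is not given in the sources used here beyond these defaults. A count table was not used here, but all values of all 13260 genes came out as whole multiples of what 1 read is worth (tolerance 0.001), so read counts were recovered from the deposited RPKM.

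Groups were taken from the labels. The main test was limma (3.58.1, lmFit and eBayes with trend, R 4.3.3) on log2(RPKM + 1). Genes entered a fit if 4 or more of its libraries exceeded 1 RPKM, and p-values were adjusted by Benjamini-Hochberg over all of them. Each comparison of 2 groups had its own fit, cell types were compared in a fit of all 38 libraries, and interactions in one of the 28 niche libraries. Since nothing states that libraries came from separate mice, p-values measure the spread between libraries. Of the members, log2 differences are printed where called or beyond 1, and of the 4 lists the 3 genes with the largest difference in each comparison of cell types, states and sites, except for 1 gene that is not reported here. The members and lists were chosen with earlier results of these data known. The letters did not pair the libraries. Correlations of same-letter deviations ran from -0.05 to 0.11 over 36 pairs of libraries, 1 of them above 0.1, and from -0.0488 to 0.0670 over the 5 pairs of lining and central libraries among them.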

Additional observations from a re-analysis of the deposited data

Results flagged for a closer look

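Within 79 sets of a member and a group of 4 or 5 libraries, 6 had a library far from the others. Chance flags about 1 in 20 such sets. Smad1 in central marrow MM was 0.537 RPKM (35 reads) in library D and at most 0.0308 in the other libraries of that group. The same library held the highest Smad6, 0.362 RPKM (23 reads), against at most 0.0650 in the others. Smad6 in lining MM was 0.431 RPKM (29 reads) in library G, against at most 0.0396. Smurf1 in lining MM was 0.00764 RPKM in library D, which was 1 read, and 0 in the others. Id1 was 498 RPKM (7850 reads) in library C of healthy EC, below the 1655 to 2042 RPKM of the others, and 9.27 RPKM (180 reads) in library J of central marrow MM, above the 0.154 to 0.689 RPKM of the others. The causes were not tested.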

How the results depend on the processing

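Alternatives covered the pseudocount, the filter on low values, the threshold, the scaling, the fit, array weights, healthy or myeloma-bearing mice alone and each letter left out. Of 840 alternative values of 40 member differences, 800 kept their direction and side of the threshold, 25 lost the threshold, 15 reached it and none reversed. Of 269 counts of called members, 268 stayed within 1.5 times. The exception was EC against OP without replicate M, with 4 members called in place of 2, and over all letters left out that count ranged from 2 to 4. No member was called under any of 141 alternatives of the state, site and interaction comparisons.

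Counts over all genes moved more. With voom over all 38 libraries, 251 genes were called in EC (0 in the main test), 82 in SP (0) and 28 in OP (1). Between MM sites the count ranged from 1 with no filter to 23, against 18. With healthy mice alone, 1637 genes were called for EC against SP (3231), 1669 for EC against OP (3535) and 215 for OP against SP (1075). A single fit of all 38 libraries called 12, 22 and 16 genes for the 3 interactions (0, 0 and 1). The causes were not tested.

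Whether same-lettered libraries came from 1 mouse is not stated. With the letter as a replicate block, the counts of called members each equalled those with no replicate block. They were 0 between MM sites, 4 for EC against SP, 2 for EC against OP and 0 for OP against SP. For MM against EC, SP and OP they were 9, 8 and 7, and for each interaction 0. The genes called between MM sites were 12 with the block and 18 without. Depth limits Smad1, Smad6, Smad7 and Smurf1 in MM, which had 42, 61, 443 and 1 reads in all.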
